A study of Mus musculus with 11 samples.

Results

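The VEGF family was followed through single cells of mouse perigonadal white adipose tissue (pgWAT). Its 10 members were taken by gene symbol. They were the 5 ligands Vegfa, Vegfb, Vegfc, Vegfd and Pgf, the 3 receptor tyrosine kinases Kdr, Flt1 and Flt4, and the 2 neuropilins Nrp1 and Nrp2. All 10 were found among the 23507 gene rows of the count table. The study compared adipose stem cells (ASC) of male and female mice with Smart-seq2, a plate method that reads whole transcripts of single cells without molecular identifiers. All mice were adults of the Pdgfrb GFP reporter strain, Tg(Pdgfrb-eGFP), on the C57BL6/J background, so every group carried the transgene, which marks cells with an active Pdgfrb promoter. No animal received a treatment. The 3261 cells came from 11 plates of the stromal vascular fraction, sorted as PDGFRB-positive (reporter), CD31-positive (an endothelial surface protein) or by DPP4 (a surface protein of ASC2), after gating against the blood cell protein CD45. The male group was mice 1, 4 and 8, and the female group was mice 2, 3, 5 and 6/7, the last a pool of animals used as 1 replicate. Each plate held cells of 1 mouse or of the pool 6/7, so mice could not be told apart from their plates.

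VEGF ligands are secreted dimers that act on receptor tyrosine kinases of endothelial cells. VEGFA binds VEGFR2 (Kdr), the main signalling receptor for blood vessel growth, and VEGFR1 (Flt1), which binds ligand tightly and signals weakly. VEGFB and PlGF (Pgf) bind VEGFR1 alone. VEGFC and VEGFD, once cut to their mature forms, bind VEGFR3 (Flt4), the receptor of lymphatic growth. VEGFC also binds VEGFR2, whereas mouse VEGFD, unlike the human protein, does not. Neuropilins bind VEGF ligands beside these receptors and also bind class 3 semaphorins together with plexins. In fat, vessels supply the growing adipocytes, and mature adipocytes, which are not in a stromal fraction, are a known source of VEGFA.

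The promoters of 3 members are shown because the results turn on them: Kdr and Flt1 are the VEGFA receptors read in blood endothelium, and Vegfc was the member that differed between the sexes. Each line is the RefSeq promoter upstream of the annotated start (GRCm38.p6), written 5′ to 3′ along the gene's own strand. Capitals mark GGAAG or its reverse complement CTTCC, the core letters bound by ETS factors, which act in endothelial genes.
Kdr promoter, chr5:75978459-75978705, minus strand: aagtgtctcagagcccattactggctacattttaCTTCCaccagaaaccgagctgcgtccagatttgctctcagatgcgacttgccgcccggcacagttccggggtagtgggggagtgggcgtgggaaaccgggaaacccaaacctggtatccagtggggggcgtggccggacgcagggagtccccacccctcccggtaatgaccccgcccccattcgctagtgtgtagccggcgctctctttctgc
Flt1 promoter, chr5:147726012-147726261, minus strand: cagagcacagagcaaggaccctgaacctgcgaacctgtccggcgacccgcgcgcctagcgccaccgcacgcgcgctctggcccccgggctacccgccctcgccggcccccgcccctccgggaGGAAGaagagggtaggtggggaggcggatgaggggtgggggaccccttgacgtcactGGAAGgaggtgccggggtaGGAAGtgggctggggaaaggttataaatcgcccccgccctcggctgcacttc
Vegfc promoter, chr8:54077282-54077531, plus strand: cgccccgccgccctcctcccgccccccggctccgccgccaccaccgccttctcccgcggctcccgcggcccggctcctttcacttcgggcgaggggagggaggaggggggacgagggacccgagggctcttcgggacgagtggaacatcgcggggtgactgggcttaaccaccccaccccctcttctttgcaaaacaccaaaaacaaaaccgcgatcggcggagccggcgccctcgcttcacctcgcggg
The Kdr window held 1 ETS core, the Flt1 window 3 and the Vegfc window 0. Of 32851 RefSeq promoters cut to the 250 bases upstream, 64.1% held an ETS core on either strand. The hypoxia response core ACGTG, or CACGT on the other strand, had 0 matches in each of the 3 windows and was held by 16.6% of all promoters. The GC box GGGCGG, or CCGCCC on the other strand, had 2 matches in Kdr, 3 in Flt1 and 2 in Vegfc, and 32.7% of all promoters held one. These matches describe the letters of the windows and locate no binding. All 10 members had a promoter entry, 12 entries in all.

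In the annotation of the same build (GRCm38) the members lay apart. Vegfa spanned chr17:46016993-46032369, Vegfb chr19:6982473-6987651, Vegfc chr8:54077606-54187096, Vegfd chrX:164373378-164402650 and Pgf chr12:85166635-85177790. Kdr spanned chr5:75932827-75978458 and Flt1 chr5:147561604-147726011, both on the minus strand. Flt4 spanned chr11:49609263-49652739, Nrp1 chr8:128358604-128503363 and Nrp2 chr1:62703285-62818695. Each value below counts reads over a whole gene, so splice forms of a member, such as soluble and membrane forms of Flt1, were not separated.

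Cells held a median of 629323 reads, spike-in rows included (range 149931 to 3548334). Clusters were made without the members among the variable genes and named by markers that included no member. They gave 2250 ASC-like cells from 7 mice, 563 blood EC-like cells from 5 mice, 137 macrophage-like cells from mice 1 and 5, 60 pericyte-like, 41 VSMC-like (vascular smooth muscle), 22 lymphatic EC-like (LEC-like, from 4 mice) and 19 epithelial-like cells (mouse 1). A further 119 cells led by adipocyte genes and 50 with high mitochondrial reads stayed unnamed. Class markers matched the labels. The summed ASC markers Pdgfra, Col1a1, Dcn and Lum lay at 9647 to 20738 CPM (counts scaled to a common library size) in the ASC-like sums and at 10.4 to 30.7 CPM in the EC-like sums. The endothelial markers Pecam1, Cdh5, Cldn5, Tie1 and Ptprb lay at 3107 to 6180 CPM in EC-like and at 1.86 to 18.1 CPM in ASC-like sums. The LEC-like name rests on Prox1, Lyve1 and Mmrn1. Macrophages were present although CD45-positive cells had been gated out. In mice 1 and 2 nearly all EC-like and ASC-like cells lay on different plates. There class could not be told apart from plate and sort, and a mouse block does not remove this.

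Vegfd was the leading VEGF ligand of ASC-like cells. Summed over the ASC-like cells of a mouse, Vegfd reached 48.0, 68.0 and 24.8 CPM in male mice 1, 4 and 8, and 68.6, 37.8, 71.8 and 87.1 CPM in female mice 2, 3, 5 and 6/7. No mouse was without it, and the sexes overlapped. Levels of different genes were compared only per kilobase of exon. On that scale Vegfd stood at 24.1 ± 9.06 CPM per kilobase (SD, n = 7), Vegfb at 3.21 ± 1.19, Vegfc at 2.76 ± 2.08, Pgf at 1.30 ± 1.34 and Vegfa at 0.583 ± 0.267. Vegfd made up 54.6% (mouse 8) to 89.8% (mouse 6/7) of the summed per-kilobase ligand level of ASC-like cells. Vegfb and Vegfc lay within each other's SD. Vegfa, the ligand of KDR and FLT1, had the lowest mean of the 5 on this scale, at 0.405% to 3.98% of the ligand sum. Pgf lay below it in mice 2 and 6/7, at 0.150% and 0.0427%.

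**Figure D1:**
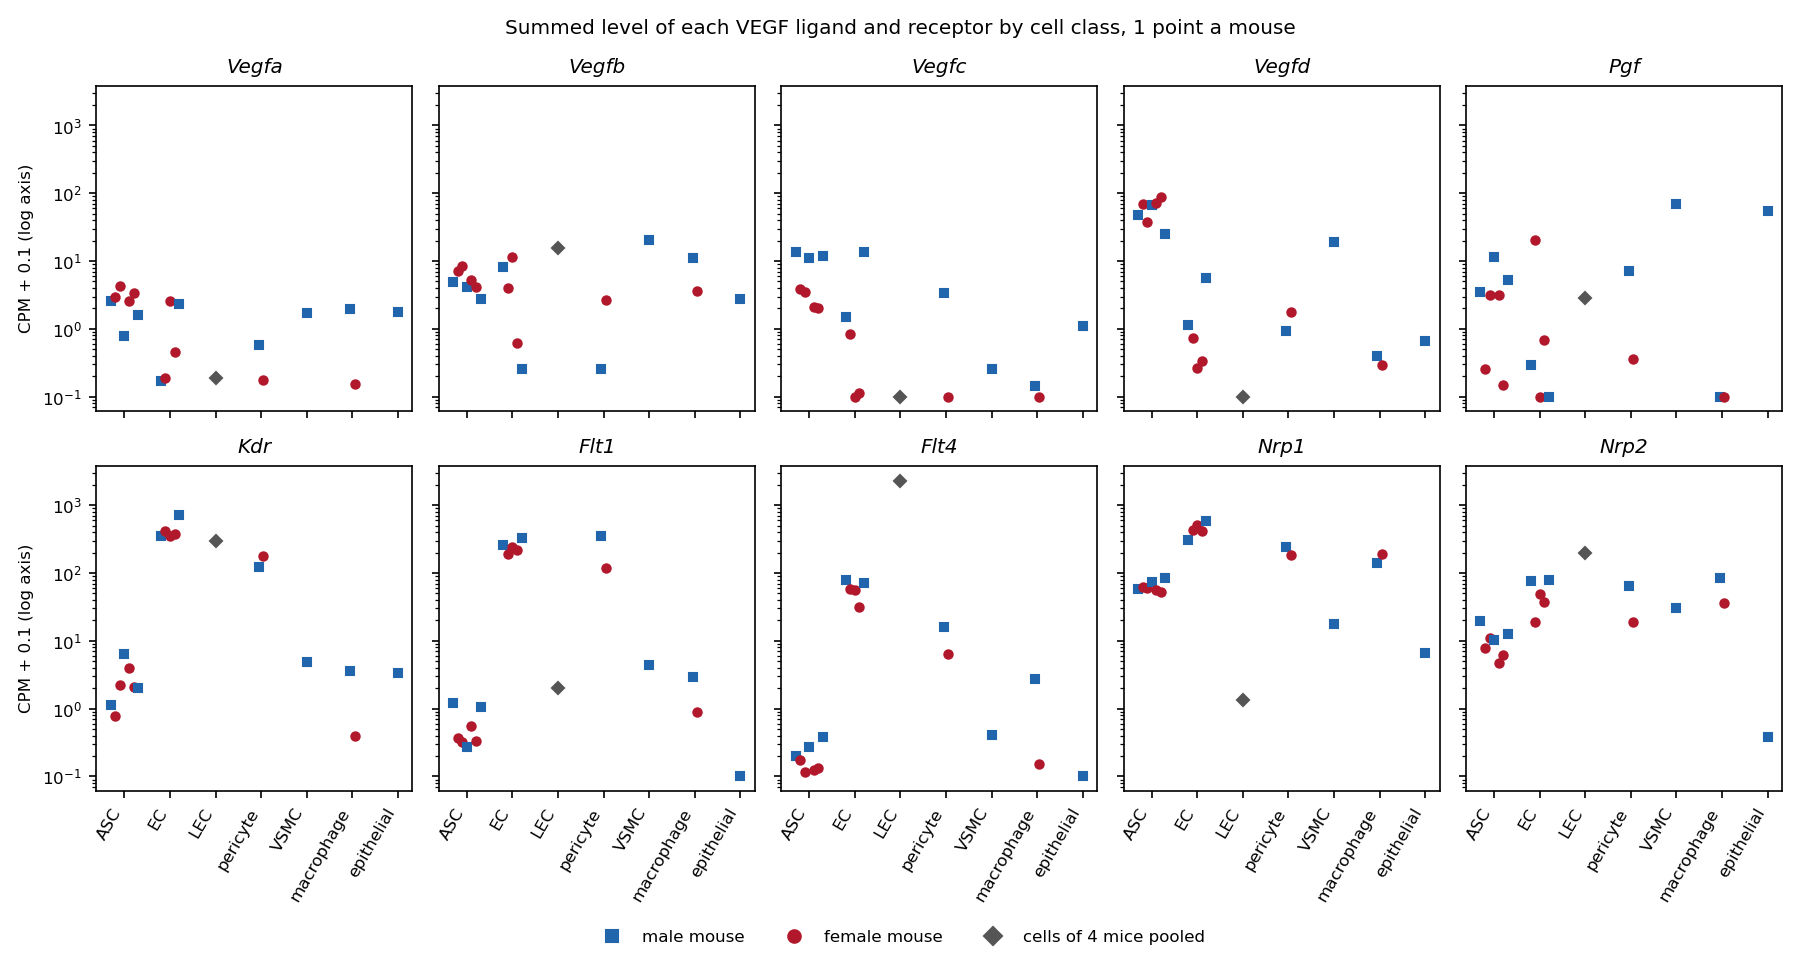
Level of each member in each cell class, with 1 point per mouse (squares male, circles female, diamonds cells of 4 mice pooled), as CPM + 0.1 on a log axis. Vegfd points of the ASC class lie between 24.8 and 87.1 CPM, and Kdr, Flt1 and Flt4 points of the EC class lie far above those of the ASC class.

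Vegfd was low in EC-like cells. It was at 1.02, 0.634, 0.167, 0.233 and 5.53 CPM in mice 1, 2, 5, 6/7 and 8. The EC-like and ASC-like sums did not overlap for Vegfd, and the fitted log2 difference, EC minus ASC, was -6.61 (SE 1.08, adjusted p = 0.0016 by edgeR's quasi-likelihood test with mouse as a block). Vegfc differed by -3.58 (SE 1.49, adjusted p = 0.114), which did not pass. Vegfb and Pgf had close means in both classes, 4.80 ± 4.88 CPM in EC-like (SD, n = 5) and 5.15 ± 1.91 in ASC-like sums (n = 7) for Vegfb, and 4.29 ± 9.16 and 3.77 ± 3.89 for Pgf. The Vegfc value of mouse 8 in EC-like cells, 13.5 CPM, came to 65.7% from 1 cell. Single cells also carried Pgf in mouse 2, where 1 cell held 53.1% of 20.7 CPM, and Vegfb in mouse 5, where 1 cell held 99.3% of 11.4 CPM. After each cell was thinned to 150000 reads, 13.8% of 560 EC-like cells had a read of any ligand, against 80.7% of 2248 ASC-like cells.

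Other classes were led by other ligands, which they shared. Per kilobase of exon, Pgf led in VSMC-like and epithelial-like cells, and Vegfb in macrophage-like and LEC-like cells. In VSMC-like cells of mouse 1 (38 cells, 1 sum, no replicate), Pgf stood at 68.3 CPM (exact Poisson interval 63.9 to 73.0, counting error only), Vegfb at 20.3 and Vegfd at 18.8. Of the Vegfb reads of all 41 VSMC-like cells, 1 cell gave 76.7%. Pgf was read in 48.8% of 41 VSMC-like cells after thinning, with an exact binomial interval of 32.9% to 64.9%. Epithelial-like cells of the same mouse held Pgf at 55.0 CPM, read in 47.4% of 19 cells. ASC-like sums held 0.0499 to 11.6 CPM of Pgf and 2.68 to 8.30 CPM of Vegfb. Macrophage-like cells held 0 reads of Pgf in both mice, where 3 counts would be 0.0645 and 0.0814 CPM, and Vegfb at 10.8 and 3.50 CPM was their main ligand. Their Vegfd, 0.301 and 0.190 CPM, lay below ASC-like cells by a log2 difference of 8.12 (fitted value -8.12, SE 1.65, adjusted p = 0.010). Their Vegfc difference of -9.23 (SE 2.85, adjusted p = 0.058) did not pass. In LEC-like cells Vegfc and Vegfd had 0 reads, where 3 counts would be 0.270 CPM. Vegfb was at 15.8 CPM there, and 1 cell gave 88.0% of its reads.

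The share of cells with a read, at equal depth, separated the classes further. Vegfd was read in 71.4% of ASC-like cells (exact interval 69.4% to 73.2%, mice from 46.6% to 81.4%), Vegfb in 14.1%, Vegfc in 13.7%, Vegfa in 11.4% and Pgf in 5.29%. In EC-like cells, a class with little ligand, the same shares were 2.86% for Vegfd, 5.36% for Vegfb, 2.32% for Vegfc, 1.96% for Vegfa and 2.50% for Pgf. Median depth before thinning was 669509 reads in ASC-like and 518151 in EC-like cells. Vegfd and Nrp1 were read together in 45.4% of ASC-like cells and Vegfd and Vegfc together in 10.01%. At least 2 of the 5 ligands were read in 31.1% of ASC-like cells and at least 3 in 3.96%. Without thinning and with a minimum of 10 reads a cell, 39 of the 70 gene and class shares fell beyond their intervals and 0 rose beyond them.

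**Figure D2:**
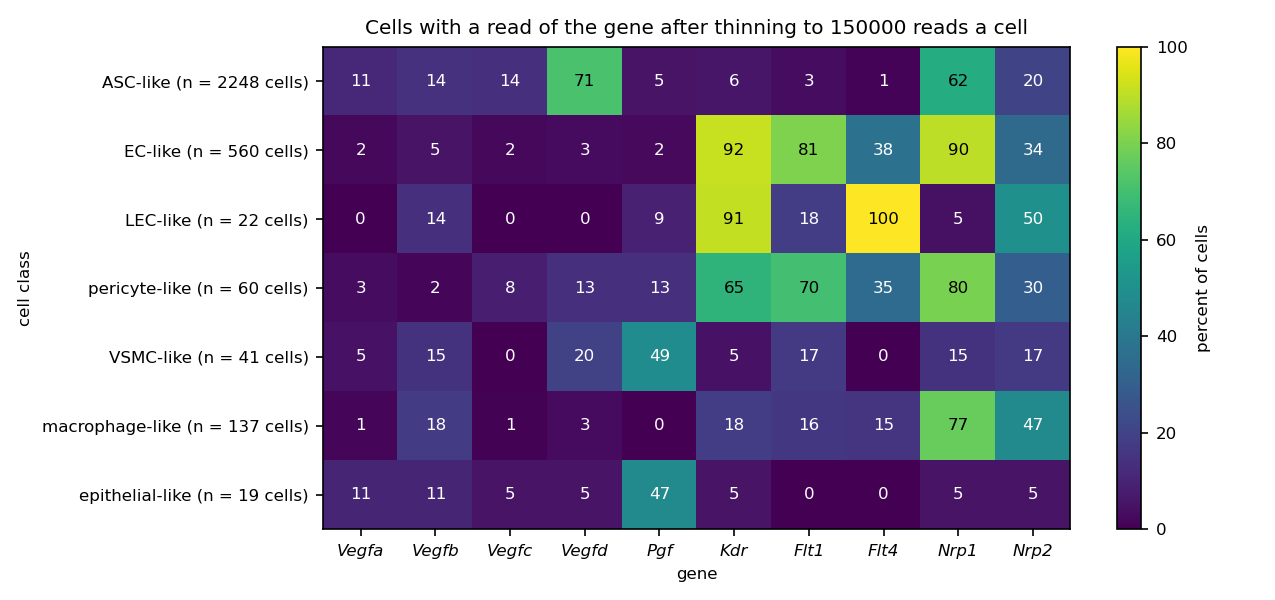
Percent of cells with at least 1 read of each member (columns) in each class (rows) after thinning every cell to 150000 reads, with the percent in each tile and the color scale from 0 to 100 percent. Vegfd is read in 71.4% of ASC-like cells, Kdr in 91.6% of EC-like cells and Flt4 in all 22 LEC-like cells.

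All 3 receptor kinases were higher in EC-like than in ASC-like cells. Kdr reached 354, 415, 352, 381 and 721 CPM in mice 1, 2, 5, 6/7 and 8. Flt1 reached 263, 193, 244, 217 and 331 CPM in the same order. Flt4 was at 79.1, 57.8, 56.9, 31.9 and 71.8 CPM. The values of Kdr, Flt1 and Flt4 in every EC-like sum lay above every ASC-like sum. Compared with ASC-like cells, Kdr was higher by a log2 difference of 7.82 (SE 0.89, adjusted p = 0.00022), Flt1 by 8.89 (SE 0.46, adjusted p = 5.0e-06) and Flt4 by 9.61 (SE 0.88, adjusted p = 7.0e-05). Of the 10 members, 6 passed the test between EC-like and ASC-like cells, 5 higher and Vegfd lower, in a comparison that called 26.3% of all 12844 genes tested. Both neuropilins were among the 5.

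Nrp1 was at 307, 432, 515, 416 and 579 CPM in EC-like cells of mice 1, 2, 5, 6/7 and 8, and Nrp2 at 77.5, 19.1, 48.3, 37.0 and 78.2 CPM. The log2 difference from ASC-like cells was 2.77 for Nrp1 (SE 0.20, adjusted p = 2.5e-05) and 2.33 for Nrp2 (SE 0.33, adjusted p = 0.00069). Unlike the kinases, both neuropilins were also well read in ASC-like cells, Nrp1 at 51.7 to 85.5 CPM and Nrp2 at 4.67 to 19.2 CPM, and the Nrp2 sums of the classes overlapped only at mouse 2's 19.1 CPM. Per kilobase of exon, Kdr (49.2 ± 17.3, SD, n = 5) and Nrp1 (46.0 ± 10.6) led in EC-like cells and did not differ beyond their spread, followed by Flt1 at 18.5 ± 3.91, Flt4 at 7.23 ± 2.20 and Nrp2 at 4.39 ± 2.18. With the longest transcript as the length, Nrp1 (123) came before Kdr (75.0), so the order of these leaders rests on the length used.

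Most single EC-like cells carried several receptors. After thinning, at least 1 of Kdr, Flt1 and Flt4 was read in 99.1% of 560 EC-like cells, against 9.88% of ASC-like cells. Kdr was read in 91.6% of EC-like cells, Nrp1 in 90.2%, Flt1 in 80.7%, Flt4 in 37.5% and Nrp2 in 34.5%. Kdr, Flt1 and Nrp1 were read together in 67.3%, from 54.9% to 82.8% by mouse. Kdr, Flt1 and Flt4 were read together in 27.9%.

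The few lymphatic cells showed another set. In 22 LEC-like cells from mice 1, 5, 6/7 and 8, pooled into 1 value without replicates, Flt4 stood at 2312 CPM (Poisson interval 2284 to 2340), Kdr at 295 (285 to 306) and Nrp2 at 196 (187 to 204). Flt1 was at 1.89 CPM and Nrp1 at 1.26 CPM in the same cells. Flt4 was read in 22 of 22 cells, Kdr in 90.9% and Nrp2 in 11 of 22, but Nrp1 in 4.55% (exact interval 0.115% to 22.8%). Flt4, Kdr and Nrp2 were read together in 45.5%. The EC-like sums, for comparison, held 31.9 to 79.1 CPM of Flt4 and 307 to 579 CPM of Nrp1. The pooled cells form no replicate group, so no test was made.

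Mural cells, the pericytes and smooth muscle around vessels, were tested as 1 class over 2 sums, mouse 1 and mouse 2. Of the 10 members 5 passed against ASC-like cells, all higher: Kdr by 6.35 (SE 1.11, adjusted p = 0.0095), Flt1 by 8.17 (SE 0.52, adjusted p = 8.2e-05), Flt4 by 6.21 (SE 0.97, adjusted p = 0.0056), Nrp1 by 1.55 (SE 0.26, adjusted p = 0.0081) and Nrp2 by 1.63 (SE 0.42, adjusted p = 0.043). The comparison called 8.56% of genes. Without mouse 2, and with at least 20 cells a sum, 1 of the 5 calls was left, Flt1. Without mouse 1, 3 were left. Vegfd differed by -4.04 (SE 1.36, adjusted p = 0.110). Between EC-like and mural cells, 0 of 10 members passed, where 2.29% of genes did. At an unadjusted p under 0.05 there were 2 of 10, and DESeq2 called the same number: Nrp1, higher in EC-like cells by 1.21 (SE 0.29, adjusted p = 0.070 by edgeR), and Flt4, with an interval of 1.11 to 5.69 (SE 1.02, adjusted p = 0.154 by edgeR). Without the mouse block Nrp1 alone passed.

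Within the mural class, Flt1 and Kdr were read mainly in pericyte-like cells, and endothelial markers lay there too. Pericyte-like cells held Flt1 at 352 CPM in mouse 1 and 120 CPM in mouse 2, Kdr at 125 and 175, and Nrp1 at 238 and 182. VSMC-like cells of mouse 1 held Flt1 at 4.36 CPM and Kdr at 4.83. Nrp2 was at 64.7 and 18.6 CPM in the pericyte-like sums and at 30.9 CPM in VSMC-like cells, where 1 cell gave 93.2% of its reads. The 5 endothelial markers summed to 1252 CPM in the pericyte-like cells of mouse 1 and 3036 CPM in those of mouse 2, against 23.4 CPM in VSMC-like cells. All mouse 2 pericyte-like cells came from a plate labelled CD31-positive and PDGFRB-negative. They alone formed the mural sum of mouse 2. Flt1 divided by the endothelial marker sum was 0.281 in mouse 1 pericyte-like cells and 0.0395 in mouse 2, where EC-like sums gave 0.0373 to 0.0847. For Kdr the ratios were 0.0995 and 0.0578, against 0.0800 to 0.117 in EC-like sums. When the 60 pericyte-like cells were divided by their endothelial markers, the 30 lower cells (253 CPM of markers) held Flt1 at 157 and Kdr at 42.9 CPM, and the 30 higher cells (3520 CPM) held 257 and 222. The Flt1 ratio of mouse 1 thus lay above every EC-like ratio, its Kdr ratio lay within their range, and the Kdr ratio of mouse 2 lay below it. Of the higher 30 cells 12 came from the CD31-positive plate of mouse 2, and of the lower 30 it was 1. The CD31-positive plate of mouse 1 held 5 other pericyte-like cells. The part of endothelial RNA in these values was not tested.

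**Figure D3:**
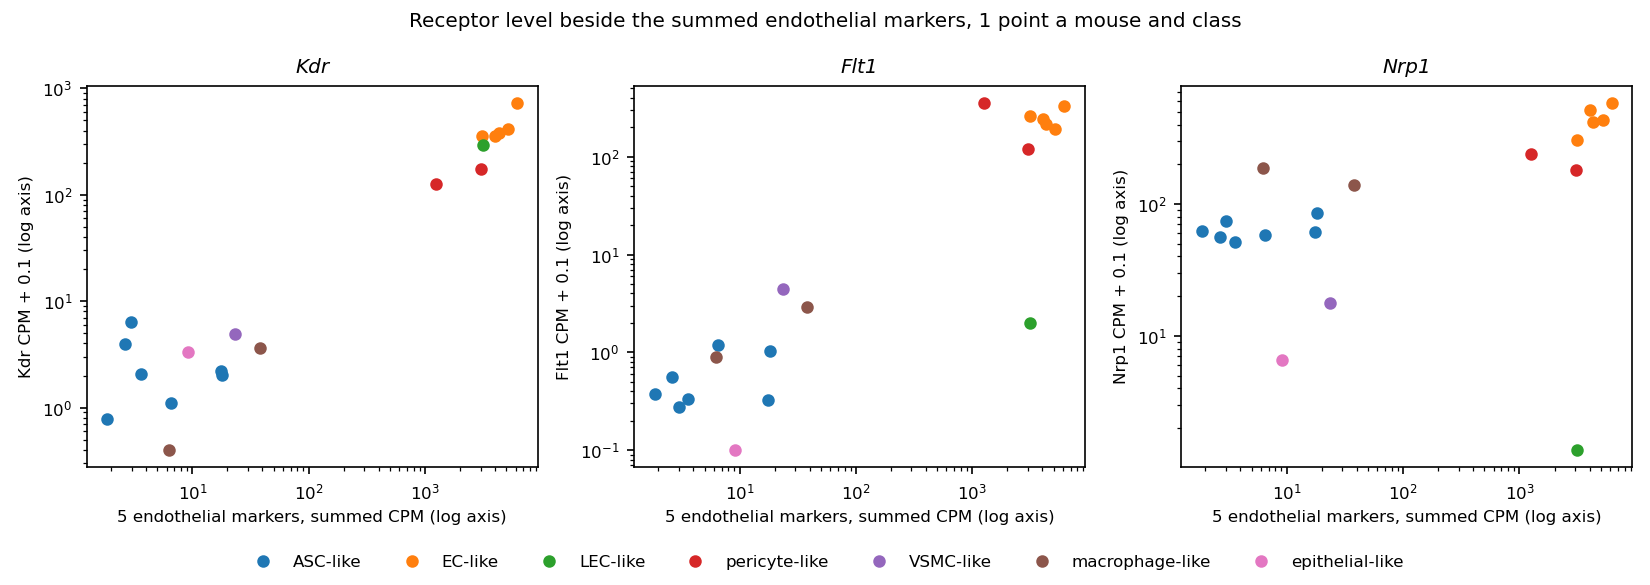
Kdr, Flt1 and Nrp1 (vertical, CPM + 0.1, log axis) against the summed CPM of 5 endothelial markers (horizontal, log axis), with 1 point for each mouse and class in the color of its class. The mouse 1 pericyte point stands at 352 CPM of Flt1 with 1252 CPM of markers, and the LEC point lies low for Flt1 and Nrp1 at 3150 CPM of markers.

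Macrophage-like cells carried neuropilins, with receptor kinases read in fewer cells. Nrp1 was at 139 CPM in mouse 1 and 188 CPM in mouse 5, and Nrp2 at 85.8 and 36.0 CPM, all above every ASC-like sum. The log2 difference from ASC-like cells was 1.49 for Nrp1 (SE 0.26, adjusted p = 0.0053) and 2.35 for Nrp2 (SE 0.43, adjusted p = 0.0061). Nrp1 was read in 76.6% of 137 thinned macrophage-like cells and Nrp2 in 47.4%, with both in 38.0%. Kdr was read in 18.2% of them (from 1.64% to 31.6% by mouse), Flt1 in 16.1% and Flt4 in 15.3%. At least 1 of these 3 kinases was read in 35.0%, against 9.88% of ASC-like cells. Of the 10 members 4 passed, 3 higher and Vegfd lower, where the comparison called 15.6% of genes. The fourth, Flt4, differed by 3.39 (SE 1.00, adjusted p = 0.048), but its values were 2.602 CPM in mouse 1 and 0.0543 CPM in mouse 5, and its difference turned to -0.083 without mouse 1. Of the 76 mouse 1 cells, 73 shared a plate with 9 LEC-like and 173 EC-like cells, and their endothelial markers were at 37.9 CPM, against 6.24 CPM in mouse 5. Flt1 differed by 1.39 (SE 0.46, adjusted p = 0.077). Without mouse 1, 0 of the 10 members passed, and a lone sum was then taken to vary like the other classes.

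Receptor kinases were low in ASC-like cells beside EC-like cells, but Kdr and Flt1 lay above the floor of 3 counts in all 7 mice. Kdr lay at 1.01, 0.688, 2.12, 6.20, 3.84, 1.98 and 1.93 CPM in mice 1, 2, 3, 4, 5, 6/7 and 8, where 1 cell gave 72.2% of the mouse 4 value. Flt1 lay at 0.173 to 1.1 CPM and Flt4 at 0.0175 to 0.277 CPM. Kdr was read in 5.92% of thinned ASC-like cells, Flt1 in 3.43% and Flt4 in 0.845%. In VSMC-like cells, another class outside the endothelium, Kdr was read in 4.88%. A small number of ASC-like cells held more: 39 of 2250 had at least 10 Kdr reads, 23 of them ASC1b, 11 ASC2 and 5 ASC1a. Together they held Kdr at 113 CPM with endothelial markers at 6.38 CPM, against 6.50 CPM in the other 2211 cells. Their summed mesothelial markers Msln, Upk3b, Lrrn4 and Krt19 stood at 122 CPM, against 13.6 CPM. The pericyte markers Kcnj8, Abcc9, Rgs5 and Higd1b stood at 37.3 against 10.8 CPM, and Flt1 at 3.23 against 0.372 CPM. The 3 plates with 0 EC-like cells also held ASC-like cells with Kdr reads, from 2.37% to 17.1% of cells by plate before thinning. Plates with many EC-like cells had larger shares: 32.9% on plate 344 (29 EC-like cells), 22.1% on plate 843 (45) and 51.0% on plate 43 (140). Plate 42, of mouse 6/7 like plate 43, held 1 EC-like cell and a share of 16.9%. The part of endothelial RNA in these shares was not tested. The 39 cells were picked by their Kdr reads, so their markers are a description.

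ASC fall into the DPP4-positive subtype ASC2 and the subtypes ASC1a and ASC1b. Each ASC-like cell took the subtype of its highest marker score, giving 807 ASC1a, 669 ASC1b and 774 ASC2 cells, of which 21.7% lay near a boundary. Nrp1 fell in ASC2. Its level in ASC2 was 37.5, 49.4, 46.5, 44.9, 53.6, 42.5 and 45.5 CPM in mice 1, 2, 3, 4, 5, 6/7 and 8. In the same order it was 93.0, 84.3, 85.3, 97.8, 74.9, 78.1 and 107 CPM in ASC1a and 73.0, 75.1, 74.5, 101, 63.8, 54.1 and 138 CPM in ASC1b. Every ASC2 value lay below every ASC1a and ASC1b value. The log2 difference was -0.94 against ASC1a (SE 0.14, adjusted p = 0.00017) and -0.80 against ASC1b (SE 0.14, adjusted p = 0.00099), lower in 7 of 7 mice in both.

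Vegfc and Nrp2 were lower in ASC2 than in ASC1b. Vegfc in ASC1b was at 36.4, 17.0 and 24.5 CPM in male mice 1, 4 and 8 and at 6.91, 7.16, 4.49 and 3.15 CPM in female mice 2, 3, 5 and 6/7. In ASC2 it was at 2.74, 5.74 and 6.63 CPM in those males and 1.38, 0.686, 1.89 and 2.49 CPM in those females. The difference was -1.90 (SE 0.44, adjusted p = 0.0099), lower in 7 of 7 mice, although the subtypes overlap when both sexes are pooled. Nrp2 in ASC1b ranged from 7.14 to 46.9 CPM (median 17.2) and in ASC2 from 1.74 to 15.6 CPM (median 8.41). Its difference was -1.42 (SE 0.41, adjusted p = 0.040), lower in 6 of 7 mice, and it was lost in 9 of 18 alternative settings. Without the mouse block only the Nrp1 call of these 3 was left.

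Of the 7 members tested, 1 passed between ASC2 and ASC1a, where 9.35% of genes did, 3 between ASC2 and ASC1b (7.77% of genes) and 0 between ASC1b and ASC1a (1.2% of genes). In the last, 2 members had an unadjusted p under 0.05, and DESeq2 called 0. Vegfc was higher in ASC1b than in ASC1a in 7 of 7 mice, by 1.099 (SE 0.41, adjusted p = 0.262 by edgeR), and Nrp2 differed by 1.17 (SE 0.41, adjusted p = 0.218 by edgeR). Pgf was higher in ASC2 than in ASC1a in 7 of 7 mice, by 2.13 (SE 0.75, adjusted p = 0.093), and passed under the likelihood ratio test and DESeq2. Vegfd, the main ligand, was present in all 3 subtypes, at 52.6 ± 17.8 CPM in ASC1a, 72.0 ± 32.9 in ASC1b and 73.2 ± 34.5 in ASC2 (SD, n = 7). Kdr, Flt1 and Flt4 were too low to be tested. Immediate early genes, which respond to cell isolation, moved with the subtypes: 7 of 10, among them Fosb, Zfp36 and Jun, were lower in ASC2 than in ASC1a, and 7 of 10 lower than in ASC1b. Their part in the member results was not tested.

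Of the class 3 semaphorins, 3 were tested between ASC subtypes, and Sema3c, Sema3d and Sema3e were all higher in ASC2 than in ASC1a. Some class 3 semaphorins, but not all, compete with VEGF for neuropilins, and plexin D1 (Plxnd1) is a receptor for some of the class. Of 11 tested genes of the receptor partner list, 6 were higher and 1 lower in ASC2 than in ASC1a, where 9.35% of genes were called. The list median was 0.90, against -0.02 for all genes. Sema3e rose by 5.11 (SE 0.59, adjusted p = 1.5e-05), Sema3d by 3.901 (SE 0.55, adjusted p = 0.00013) and Sema3c by 3.27 (SE 0.30, adjusted p = 1.7e-06), while Plxnd1 fell by 2.79 (SE 0.52, adjusted p = 0.0015). Sema3c was at 429, 287, 168, 112, 188, 170 and 121 CPM in ASC2 of mice 1, 2, 3, 4, 5, 6/7 and 8, and at 4.73 to 45.0 CPM in ASC1a. Against ASC1b, 5 were higher and 1 lower, where 7.77% of genes were called. The higher genes were led by Sema3e (4.38), Sema3c (2.71) and Itgb3 (2.19), and Plxnd1 was again lower (-2.15). Sema3d did not pass against ASC1b, and Sema3f was below the filter.

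**Figure D4:**
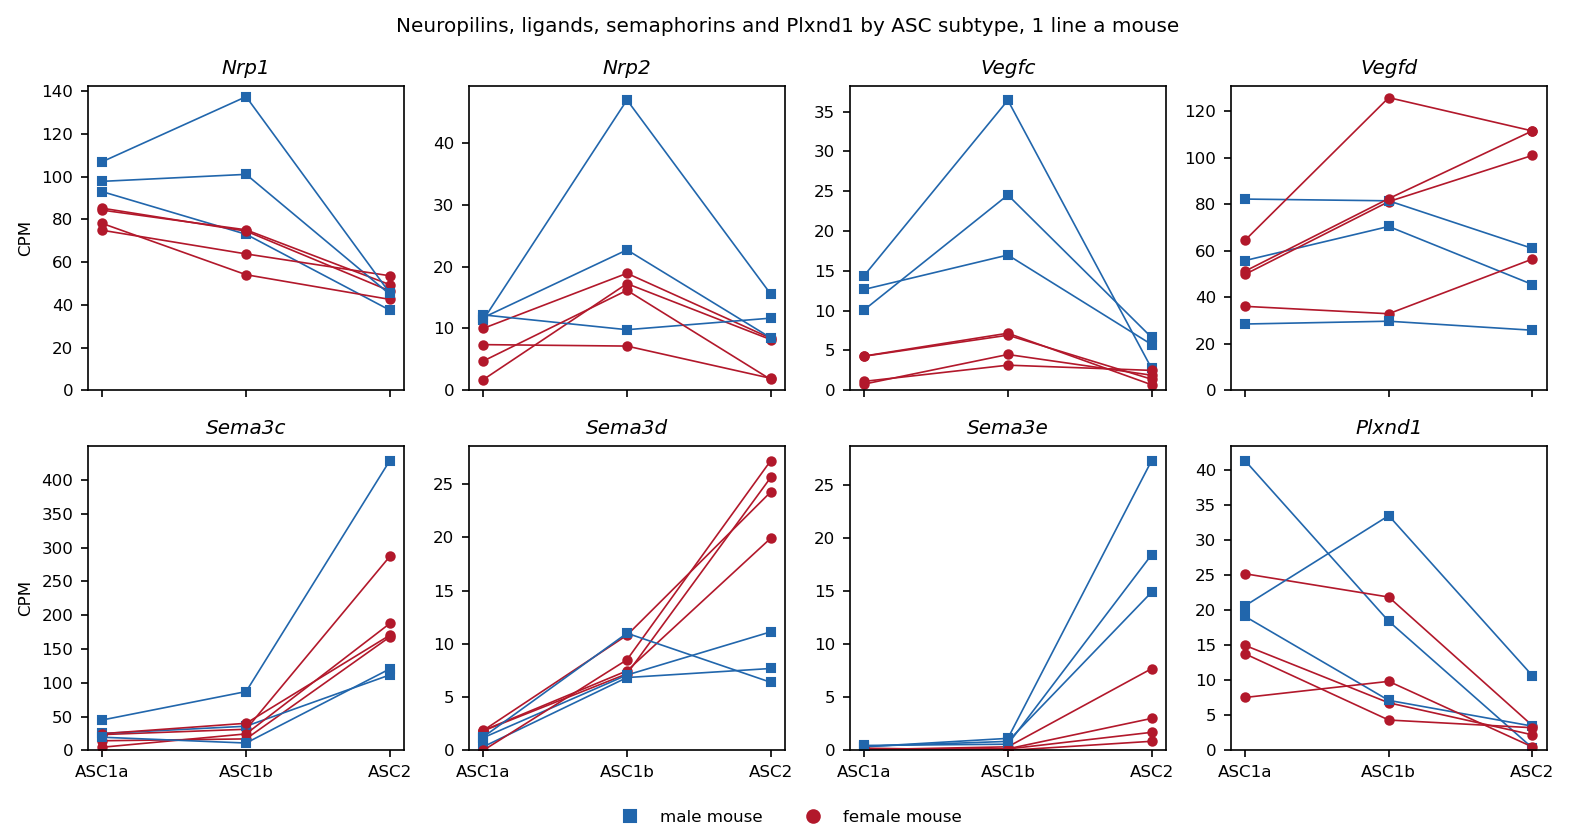
Level in CPM (linear axis from 0) of neuropilins, Vegfc, Vegfd, semaphorins and Plxnd1 in ASC1a, ASC1b and ASC2, with 1 line per mouse (squares male, circles female). All 7 Nrp1 lines end lowest in ASC2, between 37.5 and 53.6 CPM, and all 7 Sema3c lines end highest there, between 112 and 429 CPM.

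The sort by surface DPP4 gave a view of ASC2 without subtype scores. Plate 709 of mouse 2 was sorted as DPP4-positive and plate 875 of the same mouse as DPP4-negative, both PDGFRB-positive, with 379 and 368 ASC-like cells. Nrp1 was at 73.8 CPM in DPP4-positive and 110 CPM in DPP4-negative cells, Vegfc at 3.52 and 7.39, and Nrp2 at 8.25 and 14.7. Vegfd was at 109 and 90.6 CPM, and Vegfa at 5.17 and 3.14. In all, 4 of 10 members were higher in the DPP4-positive plate. CPM of sorts and plates are scaled by library totals without TMM. There was 1 plate a sort and so no test. These plates also hold the ASC2 cells of mouse 2, 254 of them from the DPP4-positive plate, so the sort is not apart from the subtype values of that mouse.

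Between EC subsets no receptor was called, in a fit that called no gene at all. By marker scores 263 EC-like cells were capillary, 139 arterial and 161 venous, with 35.5% near a boundary. Kdr was at 588 ± 357 CPM in capillary (SD, n = 5), 456 ± 67.0 in arterial (n = 4) and 383 ± 96.7 in venous cells (n = 5). Flt1 was at 293 ± 101, 283 ± 43.8 and 258 ± 103 CPM in the same order, and Nrp1 at 510.4 ± 101, 455 ± 206 and 497 ± 148 CPM. Of the 5 members tested (Kdr, Flt1, Flt4, Nrp1, Nrp2), 0 passed in each of the 3 contrasts, and 0 had an unadjusted p under 0.05 or were called by DESeq2. The share of all genes called was 0.0% between arterial and capillary, 0.0% between venous and capillary and 0.0% between arterial and venous, with 172, 260 and 207 of 7437 genes at an unadjusted p under 0.05. Since these contrasts resolved no gene, they say nothing particular about the members, and equal levels were not shown. The interval of the venous minus capillary difference of Kdr ran from -1.06 to 0.12.

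Vegfc was the member that differed between the sexes in ASC-like cells. It was at 13.7, 10.9 and 11.7 CPM in male mice 1, 4 and 8 and at 3.71, 3.43, 1.97 and 1.92 CPM in female mice 2, 3, 5 and 6/7. The groups did not overlap, with means of 12.1 ± 1.43 CPM (SD, n = 3) and 2.76 ± 0.945 CPM (n = 4). The log2 difference, male minus female, was 2.10 (SE 0.34, interval 1.34 to 2.87, adjusted p = 0.014 by edgeR's quasi-likelihood test), a 4.29-fold difference. Calls between the sexes also needed a fold above 2.6. Of the 7 members tested this was the 1 that passed, in a comparison that called 2.23% of 11820 genes. The share of ASC-like cells with a Vegfc read, at equal depth, was 21.7%, 25.6% and 24.2% in males and 9.10%, 7.27%, 9.62% and 7.37% in females. The share comes from the same reads as the level. The call was lost without mouse 6/7 (1.95, adjusted p = 0.054) and when samples were scaled by library totals alone (1.42, adjusted p = 0.111), a scaling that put the median of all genes at -0.60. Sex and plate cannot be told apart here, since no plate held both.

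**Figure D5:**
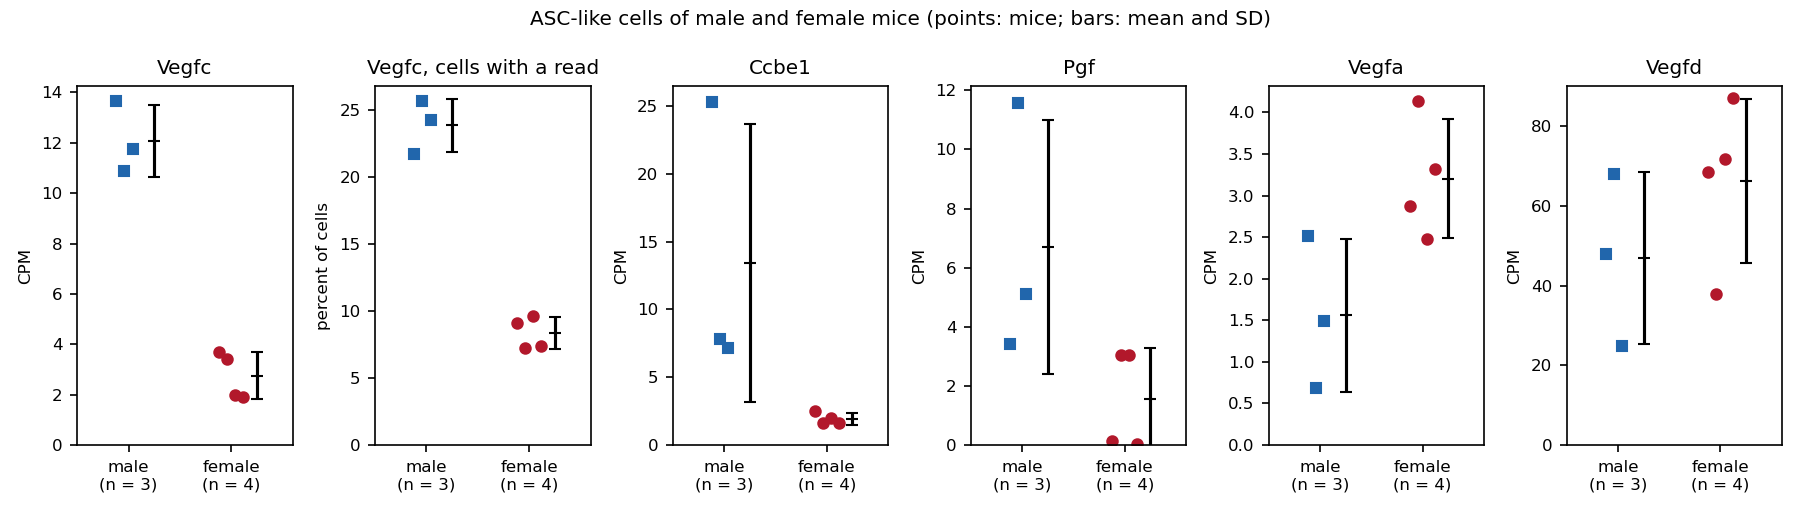
Values of ASC-like cells by sex, with 1 point per mouse (squares male, circles female) and the mean with its SD beside each group, for Vegfc (CPM), the percent of cells with a Vegfc read, and Ccbe1, Pgf, Vegfa and Vegfd (CPM). The lower SD bar of female Pgf is cut at 0. The 3 male Vegfc points lie at 10.9 to 13.7 CPM and the 4 female points at 1.92 to 3.71 CPM.

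The other members did not pass between male and female ASC-like cells. Pgf was at 3.41, 11.6 and 5.11 CPM in males 1, 4 and 8 and 0.153, 3.03, 3.05 and 0.0499 CPM in females 2, 3, 5 and 6/7, without overlap, and its difference was 2.07 (SE 1.12, adjusted p = 0.337). Nrp2 was at 13.9 ± 4.76 CPM in males and 7.32 ± 2.63 in females, with a difference of 0.90 (SE 0.35, adjusted p = 0.208). Vegfa went the other way, at 1.56 ± 0.920 and 3.20 ± 0.715 CPM, with a difference of -1.06 (SE 0.53, adjusted p = 0.307). Vegfd was at 47.0 ± 21.6 and 66.3 ± 20.6 CPM, with a difference of -0.53 (SE 0.39, adjusted p = 0.476).

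Within subtypes Vegfc kept its direction. In ASC1b the difference was 2.23 (SE 0.45, adjusted p = 0.040), the 1 of 5 members tested that passed, where 1.3% of genes did. This call was lost on leaving out each mouse but mouse 4. In ASC1a 0 of 5 members passed by edgeR, where 1.25% of genes did. There Vegfc was at 14.4, 12.7 and 10.1 CPM in males 1, 4 and 8 and at 4.27, 4.29, 0.767 and 1.11 CPM in females 2, 3, 5 and 6/7. Its difference in ASC1a was 2.22 (SE 0.66, adjusted p = 0.158), and 2 members had an unadjusted p under 0.05 while DESeq2 called 1, Vegfc. In ASC2 0 of 5 members passed, where 0.633% of genes did, with 2 at an unadjusted p under 0.05 and 0 by DESeq2. Vegfc was too low there for the test, but its male values (2.74 to 6.63 CPM) lay above its female values (0.686 to 2.49 CPM).

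In EC-like cells (2 male and 3 female sums) 0 of the 5 members tested passed between the sexes, where 0.0492% of genes did, with 0 at an unadjusted p under 0.05 and 0 by DESeq2. Nrp2 was at 77.5 and 78.2 CPM in males and 19.1, 48.3 and 37.0 CPM in females. Its groups did not overlap, and the difference was 1.16 (SE 0.51, adjusted p = 0.650 by edgeR). Flt1 and Flt4 also did not overlap, at 263 to 331 against 193 to 244 CPM and 71.8 to 79.1 against 31.9 to 57.8 CPM. The low Vegfc and Vegfd values of EC-like cells did not overlap either, but were below the filter of the test. The Vegfc value of mouse 8 rested largely on a single cell. Kdr and Nrp1 overlapped. Groups of 2 and 3 sums often fall apart without a difference, and the share of all genes without overlap was not counted. The sex difference itself was compared between EC-like and ASC-like cells in 5 mice. Of 9 members tested 0 passed by edgeR, where 0.0% of genes did, and 2 had an unadjusted p under 0.05: Flt1 (-1.30, SE 0.42, adjusted p = 0.773 by edgeR) and Vegfd (4.03, SE 1.27, adjusted p = 0.773 by edgeR). DESeq2 called Vegfd alone.

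Sorting by surface CD31 or by the Pdgfrb reporter gave a view of receptors and of Vegfd without any cluster. In mouse 1 the CD31-positive plate held Kdr at 162, Flt1 at 118 and Flt4 at 144 CPM, and the PDGFRB-positive plate 8.03, 21.7 and 1.55 CPM. In mouse 2 the CD31-positive plate held 541, 262 and 71.8 CPM, and the PDGFRB-positive, DPP4-negative plate 3.36, 0.204 and 0.194 CPM. The CD31-positive plate of mouse 2 was also labelled PDGFRB-negative, whereas the label of the mouse 1 plate names CD31 alone. Vegfd was at 2.02 against 26.7 CPM in mouse 1 and 0.939 against 90.5 CPM in mouse 2. The CD31-positive plate of mouse 1 also held the 9 LEC-like cells of that mouse and 73 macrophage-like cells. Its PDGFRB-positive plate held 39 pericyte-like, 37 VSMC-like and 19 epithelial-like cells. The ASC-like cells of that plate alone held Flt1 at 0.756 and Pgf at 2.41 CPM. The CD31-positive plate of mouse 2 held 49 unnamed cells, and its EC-like cells alone held Vegfb at 5.65 CPM. The 5 receptors and neuropilins were higher in the CD31-positive plate of both mice, and Vegfa, Vegfc and Vegfd were lower. Over whole plates, which differed in their cell classes, the other ligands differed between the mice. Vegfb was at 8.36 against 2.94 CPM in mouse 1 and 10.1 against 12.3 CPM in mouse 2, and Pgf at 0.259 against 7.07 CPM in mouse 1 and 24.5 against 0.0795 CPM in mouse 2. On a plate of mouse 6/7 that held both sorts, column names gave Kdr at 653 CPM in 172 CD31-positive and 5.20 CPM in 53 PDGFRB-positive cells, and Vegfd at 0.299 and 130 CPM. Each sort was 1 plate or part of one, so these values carry no test.

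VEGFC and VEGFD are secreted as precursors, and the genes that process or retain ligands were followed as a list of 12. Against ASC-like cells, EC-like cells were lower for 7 and higher for 1. Adamts3, the protease that cuts pro-VEGFC, differed by -10.3 (SE 1.88, adjusted p = 0.0031), the convertase Pcsk5 by -10.1 (SE 0.52, adjusted p = 5.0e-06) and Adamts14, a relative of Adamts3, by -8.50 (SE 0.91, adjusted p = 0.00016), while the convertase Pcsk7 differed by 1.09 (SE 0.34, adjusted p = 0.039). The list median was -2.35, against -0.19 for all genes. The comparison called 26.3% of genes. Macrophage-like cells were lower for 8 of 12, where 15.6% of genes were called, and mural cells for 2 of 12, where 8.56% were. Ccbe1, which helps ADAMTS3 cut pro-VEGFC, differed between the sexes in ASC-like cells. It was at 25.3, 7.82 and 7.18 CPM in ASC-like cells of males 1, 4 and 8 and at 2.52, 1.63, 2.01 and 1.59 CPM in females 2, 3, 5 and 6/7, without overlap. The difference was 2.77 (SE 0.48, adjusted p = 0.019), the 1 called of 12 in the list, where 2.23% of genes were called. It was 3.60 in ASC1a (SE 0.68, adjusted p = 0.029) and 3.71 in ASC2 (SE 0.63, adjusted p = 0.027). In ASC1b it was 2.296 (SE 0.72, adjusted p = 0.163), which did not pass, with males 1, 4 and 8 at 62.4, 8.10 and 7.82 CPM and females at 3.22 to 6.88 CPM. Ccbe1 also fell from ASC1b to ASC2, by 2.04 (SE 0.48, adjusted p = 0.012), as did Adamts3, by 1.30 (SE 0.35, adjusted p = 0.028).

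Of the receptor partners, 5 of 15 were higher and 7 lower in EC-like than in ASC-like cells, where 26.3% of genes were called. The receptor phosphatase Ptprb, also one of the endothelial markers, was higher by 10.1 (SE 0.92, adjusted p = 7.1e-05), Sema3f by 3.99 (SE 0.62, adjusted p = 0.0012) and Plxnd1 by 3.31 (SE 0.40, adjusted p = 0.00029). Sema3c differed by -7.57 (SE 1.18, adjusted p = 0.0012), Sema3d by -6.32 (SE 0.79, adjusted p = 0.00056) and the integrin Itgb3 by -5.79 (SE 1.20, adjusted p = 0.0061). Other classes held these genes too. Sema3d was at 87.1 CPM in LEC-like cells, against 4.14 to 10.99 CPM in ASC-like sums, Sema3c at 96.5 CPM in epithelial-like cells, and Plxnd1 at 146 CPM in VSMC-like cells, against 21.1 to 316 CPM in EC-like sums. Between the sexes, 1 of 12 tested partners passed in ASC-like cells, where 2.23% of genes did. It was the phosphatase Ptprj, higher in males by 1.81 (SE 0.39, adjusted p = 0.045).

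In the comparison of EC-like with ASC-like cells, which called 26.3% of genes, the oxygen-sensing regulators of Vegfa were near that share. Of these, 2 of 9 tested were higher in EC-like cells, Epas1 (HIF-2 alpha) by 3.49 (SE 0.33, adjusted p = 8.9e-05) and the prolyl hydroxylase Egln1 by 2.13 (SE 0.43, adjusted p = 0.0049), and 0 were lower. Epas1 was at 304 to 739.8 CPM in EC-like and 17.9 to 120.0 CPM in ASC-like sums. Of 8 hypoxia-induced genes 4 were higher in EC-like cells, led by Ndrg1 (2.43), Pfkfb3 (2.32) and Bnip3 (1.13). Of 7 endothelial genes that VEGFA induces, 4 were higher there, led by Dll4 (10.8), Nos3 (8.98) and Angpt2 (5.94). Between the sexes in EC-like cells 0 of these 7 passed, where 0.0492% of genes did, although the list median was 2.09, male minus female. Of 24 signalling genes below the receptors, 6 were higher in EC-like cells, led by Hspb1 (3.14), Yes1 (2.93) and Plcg1 (2.34), and 4 lower, led by Sphk1 (-6.00), Src (-5.97) and Prkca (-4.58). The medians of these lists were -0.11, 1.13, 3.98 and 0.00070 in the order given, against -0.19 for all genes, and these log2 differences passed at adjusted p under the limit of 0.05 by edgeR.

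The genes with patterns most like a member, by Pearson's r of log2(CPM + 1) over the 16 sums of class and mouse, followed the same division. For Kdr they were Lmcd1 (0.989), Aqp1 (0.987) and Rflnb (0.984), and for Flt1 Timp4 (0.996), Ptprb (0.994) and Sox17 (0.993). For Flt4 they were Gm16181, Nos3 (0.987) and Mmrn2 (0.981), for Nrp1 Mfng (0.973), Fam43a and Fcho2, and for Nrp2 Gpr146 (0.940), Vps13d and Abcg1. For Vegfd they were Gm43552, Prss23os and Fibin (0.965), and for Vegfc Thsd7a (0.954), Garnl3 and Boc. The nearest genes of Vegfa (Unc5c, 0.817), Vegfb (Ttc38, 0.877) and Pgf (Tent5b, 0.820) were less alike. The sums share mice, libraries and class composition, so these values only describe them.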

How the data were processed

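The deposited table holds whole-number read counts per gene and cell, made by the authors with STAR (mm10), Salmon and tximport, with versions not given in the sources used here. The authors also removed cells by depth, genes detected, mitochondrial and spike-in share, and signs of another cell class, so no doublet caller was run here. The 72 spike-in rows (1.98% of reads) were left out, and 0 columns of cells stayed unmapped.

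Cells were clustered with Seurat 5.3.0 (scale factor 5e+05, 3000 variable genes less 4 members, 14 components, resolution 1.1, 18 clusters), and a cluster was named when at least 3 markers of a class were read in at least 25% of its cells. Subtypes took the highest marker score, with a margin under 0.25 counted as near a boundary. Counts were summed per mouse and class (at least 10 cells) and tested with edgeR 4.0.16 (R 4.3.3), TMM scaling and the quasi-likelihood test, over genes that exceeded 600 summed reads in 2 or more sums. Class, subtype, subset and interaction fits carried mouse as a block, because their sums come from the same mice, while male and female mice share no number. Adjusted p-values are Benjamini-Hochberg over all genes of a fit, with a limit of 0.05 and, between sexes, a fold above 2.6. Mice are separate animals, apart from the pool 6/7. Alternatives used likelihood ratio tests, DESeq2 1.42.0, other scalings, filters and cell classes, and each mouse left out. The fits were tested on simulated data.

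Named were all 10 members, at most 3 called genes a direction in each pathway list and comparison, and the 3 genes most like each member. The family, whose members were taken by symbol, and the lists were chosen with earlier results of these data known. Thinning drew 150000 reads a cell. Intervals (exact Poisson or binomial, 95%) and floors (3 counts) cover counting error only, since reads without molecular identifiers are not independent molecules. Levels were computed with Python 3.11.15, numpy 2.4.6, pandas 2.3.3, scipy 1.17.1 and limma 3.58.1, and drawn with matplotlib 3.10.9.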

Additional observations from a re-analysis of the deposited data

Results flagged for a closer look

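Of 33 groups of member values, 3 held a sample far from the others by Dixon's test, where chance flags about 1 in 20 groups. Kdr in EC-like cells of mouse 8 stood at 721 CPM, and the other 4 mice at 352 to 415 CPM. Pgf in ASC2 cells of mouse 4 stood at 21.9 CPM, and the other mice at 0.157 to 9.38 CPM. Nrp2 in ASC1b cells of mouse 1 stood at 46.9 CPM, and the other mice at 7.14 to 22.7 CPM.

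A ligand signal was also present in cells outside the comparisons. Vegfb was at 46.0 CPM in the 119 unnamed cells led by adipocyte genes, against 0.160 to 11.4 CPM in ASC-like and EC-like sums. These cells held adipocyte markers at 12971 CPM and endothelial markers at 2267 CPM. Pgf was at 55.0 CPM in the 19 epithelial-like cells of mouse 1, against 0 to 20.7 CPM in ASC-like and EC-like sums.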

How the results depend on the processing

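The EC-like against ASC-like calls of Kdr, Flt1, Flt4, Nrp1, Nrp2 and Vegfd and both Nrp1 calls of ASC2 held in all 18 alternatives. The cause of the changes below was not tested. Of 5 members called between mural and ASC-like cells, 1 was left with at least 20 cells a sum and 2 with classes from each cell's own markers, and leaving out a mouse gave 1 to 5. Between macrophage-like and ASC-like cells, 4 became 7 with the likelihood ratio test and 7 with DESeq2, and 0 to 5 on leaving out a mouse; a class left with 1 sum was taken to vary like the others. The macrophage minus ASC difference of Flt4 was 3.39 and ran from -0.083 without mouse 1 to 4.68 without mouse 5. Between EC-like and mural cells, 0 became 2 with the likelihood ratio test and DESeq2. Without the replicate block the EC-like against mural count was 1 and the ASC2 against ASC1b count went from 3 to 1. ASC2 against ASC1a went from 1 to 2 with the likelihood ratio test and DESeq2. For Vegfc between the sexes in ASC-like cells, library totals alone gave 0 calls, and leaving out a mouse gave 0 to 1 (differences 1.95 to 2.28). Within ASC1a the likelihood ratio test and DESeq2 gave 1 call in place of 0. Within ASC1b library totals alone and a filter of 10 counts in 2 sums gave 0 in place of 1, and leaving out a mouse gave 0 to 1. The interaction went from 0 to 1 with DESeq2. The count of all genes called between the sexes in ASC-like cells was 264 and ranged from 92 to 592, in mural cells against ASC-like cells it was 1099 and ranged from 187 to 2673, in ASC1b against ASC1a 134 and 6 to 392, and in EC-like cells between the sexes 4 and 0 to 718. Leaving out the DPP4-positive plate and using pericyte-like cells alone as mural were chosen after seeing the data, and moved no count of called members by over 1.5 times. Ligand sums of EC-like cells, and Vegfb in LEC-like and VSMC-like cells, rested in part on single cells.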
